A study of Mus musculus with 36 samples.

Results

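Long noncoding RNA (lncRNA) genes that overlap no protein-coding gene were examined for single-strand breaks (SSBs) and AP sites in 24-month-old mice. They were chosen from the RefSeq annotation of GRCm38 as autosomal genes of biotype lncRNA, at least 1 kb long, whose span overlaps no gene of biotype protein_coding. There were 7652 such genes, out of 12035 autosomal lncRNA genes of that length and 49939 annotated genes of any kind. Their length ranged from 1000 to 1283931 bp with a median of 8782.5 bp. The 5' end was known for 5792 of them from RefSeq promoter sequences, and 1860 had no entry there. The rule of choice used the annotation alone and no lesion, but it was set with earlier results of these data known.

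The lesions came from 24 libraries of untreated wild-type C57BL/6J males. The labels state that 2 mice of 24 months gave bone marrow freed of red cells, brain, heart, liver, PBMCs (mononuclear cells of the blood) and motile sperm. Each of the 12 tissue samples was profiled with both assays, so that there were 12 SSB and 12 AP libraries with 2 per tissue. DNA of sperm was purified with a different kit from that of the other tissues, so a difference of sperm and the kit cannot be told apart. The tissue labels were not checked against marker genes, since the RNA profiles are not analysed here.

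An SSB is an interruption of a single DNA strand, and an AP site is a sugar of the backbone that has lost its base, most often a purine. Both are among the most frequent lesions of DNA and are intermediates of base excision repair, in which a damaged base is cut out, the strand is opened at the AP site and the gap is filled. SSBs are known to gather at active promoters and other regulatory DNA. lncRNA genes are transcribed by RNA polymerase II without coding for a protein, mostly at lower levels than protein-coding genes. Many of them start head to head with a protein-coding gene and share its CpG-rich promoter, and such genes are called divergent here when the 5' ends lie within 2 kb of each other on opposite strands.

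SSiNGLe records the nucleotide of an SSB and SSiNGLe-AP that of an AP site. The SSB libraries held 225011 to 1041983 positions with a median of 410489, and the AP libraries 460719 to 963258 with a median of 739741. The median lncRNA gene therefore held 1 to 4 positions per SSB library and 2 to 4 per AP library, and 137 and 125 of the genes had 0 positions in all 12 libraries of an assay. The 2 libraries of a tissue had 0.0958% to 0.396% of their positions in common (share of the smaller one) and were kept as separate samples. Each position was counted once. Density is the number of positions per kb and per 1000000 positions of the library, and it was compared with the density of gene-free sequence 20 to 50 kb from the genes, the flank.

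Some promoters of genes with many positions at the 5' end show what the libraries record, and they are given here before the densities. Each window holds 250 bases before and 50 bases after the annotated start, from RefSeq in the GRCm38.p6 build, written 5' to 3' on the strand of the gene. Capitals mark nucleotides at which any of the 12 libraries of the named assay has a lesion on either strand. The sequences are LOC115490388, which had the most positions within 500 bp of its 5' end in both assays (chr6:3182866-3183165, plus strand), 2610507I01Rik, which starts 55 bp from the 5' end of Mrpl55 (chr11:59202382-59202681, minus strand), Gm38440, which starts 153 bp from that of Glul (chr1:153899727-153900026, minus strand), 2410006H16Rik, host of the small nucleolar RNAs Snord49a, Snord49b and Snord65 (chr11:62602627-62602926, plus strand), and Gm34177, among the 5 with most AP positions (chr1:184329340-184329639, minus strand).
LOC115490388, SSB: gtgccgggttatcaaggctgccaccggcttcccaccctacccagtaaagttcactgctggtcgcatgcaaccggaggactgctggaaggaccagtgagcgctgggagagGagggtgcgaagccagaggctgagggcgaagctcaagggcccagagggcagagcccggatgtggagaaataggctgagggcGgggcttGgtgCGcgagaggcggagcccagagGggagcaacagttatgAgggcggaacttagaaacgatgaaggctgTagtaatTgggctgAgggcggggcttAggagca
LOC115490388, AP: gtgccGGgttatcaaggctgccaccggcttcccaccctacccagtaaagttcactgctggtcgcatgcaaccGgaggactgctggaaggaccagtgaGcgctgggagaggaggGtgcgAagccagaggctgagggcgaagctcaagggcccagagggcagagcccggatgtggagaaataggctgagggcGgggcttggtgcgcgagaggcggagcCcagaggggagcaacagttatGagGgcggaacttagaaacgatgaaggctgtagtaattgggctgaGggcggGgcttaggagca
2610507I01Rik, SSB: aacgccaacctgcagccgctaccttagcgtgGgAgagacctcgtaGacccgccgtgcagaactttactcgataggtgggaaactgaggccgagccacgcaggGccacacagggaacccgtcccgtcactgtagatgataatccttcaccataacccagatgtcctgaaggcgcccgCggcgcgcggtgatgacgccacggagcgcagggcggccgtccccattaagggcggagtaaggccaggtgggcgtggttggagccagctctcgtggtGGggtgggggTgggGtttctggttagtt
Gm38440, SSB: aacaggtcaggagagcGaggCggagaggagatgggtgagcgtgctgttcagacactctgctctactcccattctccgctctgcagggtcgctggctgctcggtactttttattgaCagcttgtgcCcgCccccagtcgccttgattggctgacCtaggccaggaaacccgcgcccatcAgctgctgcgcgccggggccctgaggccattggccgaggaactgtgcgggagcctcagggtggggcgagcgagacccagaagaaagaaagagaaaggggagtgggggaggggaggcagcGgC
2410006H16Rik, SSB: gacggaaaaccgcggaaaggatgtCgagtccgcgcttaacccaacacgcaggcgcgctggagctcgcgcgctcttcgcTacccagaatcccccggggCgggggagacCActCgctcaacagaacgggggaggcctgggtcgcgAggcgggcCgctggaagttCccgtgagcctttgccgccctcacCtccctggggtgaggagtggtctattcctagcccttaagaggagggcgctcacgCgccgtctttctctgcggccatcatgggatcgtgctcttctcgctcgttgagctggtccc
Gm34177, AP: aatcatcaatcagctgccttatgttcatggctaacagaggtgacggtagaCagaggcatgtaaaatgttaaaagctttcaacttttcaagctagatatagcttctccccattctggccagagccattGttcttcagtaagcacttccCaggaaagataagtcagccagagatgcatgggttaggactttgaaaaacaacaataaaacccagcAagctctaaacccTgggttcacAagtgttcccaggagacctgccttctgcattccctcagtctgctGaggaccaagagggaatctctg
LOC115490388 held 11 SSB positions from 7 libraries and 13 AP positions from 9 libraries in these 300 bases. 2610507I01Rik held 10 SSB positions from 5 libraries, Gm38440 held 9 from 4 libraries and 2410006H16Rik held 11 from 6 libraries. Gm34177 held 7 AP positions from 6 libraries and 2 SSB positions. The GC content was 62.0% in LOC115490388, 63.0% in 2610507I01Rik, 63.7% in Gm38440 and 65.7% in 2410006H16Rik, with 15 to 31 CpG dinucleotides, against 45.3% and 1 CpG in Gm34177. These genes were picked for their number of positions, so their height is no result.

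The bases at the lesions differed between the assays in the promoters of the 5792 genes. Read on the strand of the lesion, the nucleotide recorded for an AP site was A in 43.3% ± 3.17 (SD, n = 12 libraries) and G in 32.7% ± 1.70 of the cases, against 26% and 24% in the same windows on both strands. The nucleotide recorded for an SSB was A in 6.79% ± 1.22, C in 37.9% ± 2.88 and G in 30.1% ± 3.23. The share of A ranged from 37.8% to 49.9% over the AP libraries and from 5.07% to 8.68% over the SSB libraries, so that the assays did not overlap. The nucleotide before the SSB was C in 50.7% ± 2.90, and the second nucleotide before the AP site was C in 51.5% ± 2.37, while A made up 5.62% and 5.05% at these places. These shares rest on 293 to 1349 SSB positions and 494 to 1160 AP positions per library and are given as a description.

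Over whole gene bodies, lesions were slightly denser than in the flanks, and much less so than in protein-coding genes. SSB density was 0.429 ± 0.00715 (SD, n = 12) in lncRNA bodies and 0.406 ± 0.00303 in their flanks. The ratio of body to flank ranged from 1.04 to 1.09 and was above 1 in 12 of 12 libraries (1.06-fold for the mean log2 ratio, two-sided exact sign-flip test, p = 0.000488, adjusted p = 0.000799). AP density was 0.435 ± 0.00278 in bodies and 0.411 ± 0.00207 in flanks, with ratios of 1.05 to 1.07, again above 1 in 12 of 12 libraries (1.06-fold, exact p = 0.000488, adjusted p = 0.000799). A p of 0.000488 is the smallest that 12 libraries can give. The 12 libraries of an assay come from 2 animals, so these tests measure the spread between libraries; over the 6 tissue means the same direction gave p = 0.0312, the smallest that 6 values allow in this exact test. The size of this excess moved with the flank: the log2 ratio of 0.08 in each assay became 0.13 against the flank at 50 to 100 kb and 0.03 without 1 kb bins that hold no position in any library, above 0 at the same p.

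Protein-coding genes served as the comparison, taking the 15490 autosomal ones of at least 1 kb that overlap no lncRNA gene, each class with its own flanks. Their bodies had an SSB density of 0.520 ± 0.0180 and their flanks 0.358 ± 0.00900, and the AP densities were 0.512 ± 0.0107 and 0.349 ± 0.00456. The log2 ratio of body to flank was lower in lncRNA genes by 0.46 ± 0.03 for SSBs and by 0.47 ± 0.02 for AP sites (SD, n = 12; lower in 12 of 12 libraries of each, exact sign-flip test, adjusted p = 0.000799). Without the 1 kb bins that hold no position, these differences were smaller, at -0.23 and -0.25 (lncRNA minus protein-coding). The flanks themselves were denser beside lncRNA genes than beside protein-coding genes. Bins without any position made up 19.9% of the lncRNA flanks and 27.6% of the protein-coding flanks. In the bodies they made up 18.1% and 13.6%. How far the difference between the flanks follows such bins was not tested. SSBs and AP sites did not differ detectably in the lncRNA body ratio, with a mean log2 difference of -0.00192 ± 0.0176 over the 12 samples (exact sign-flip test, p = 0.738).

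**Figure D1:**
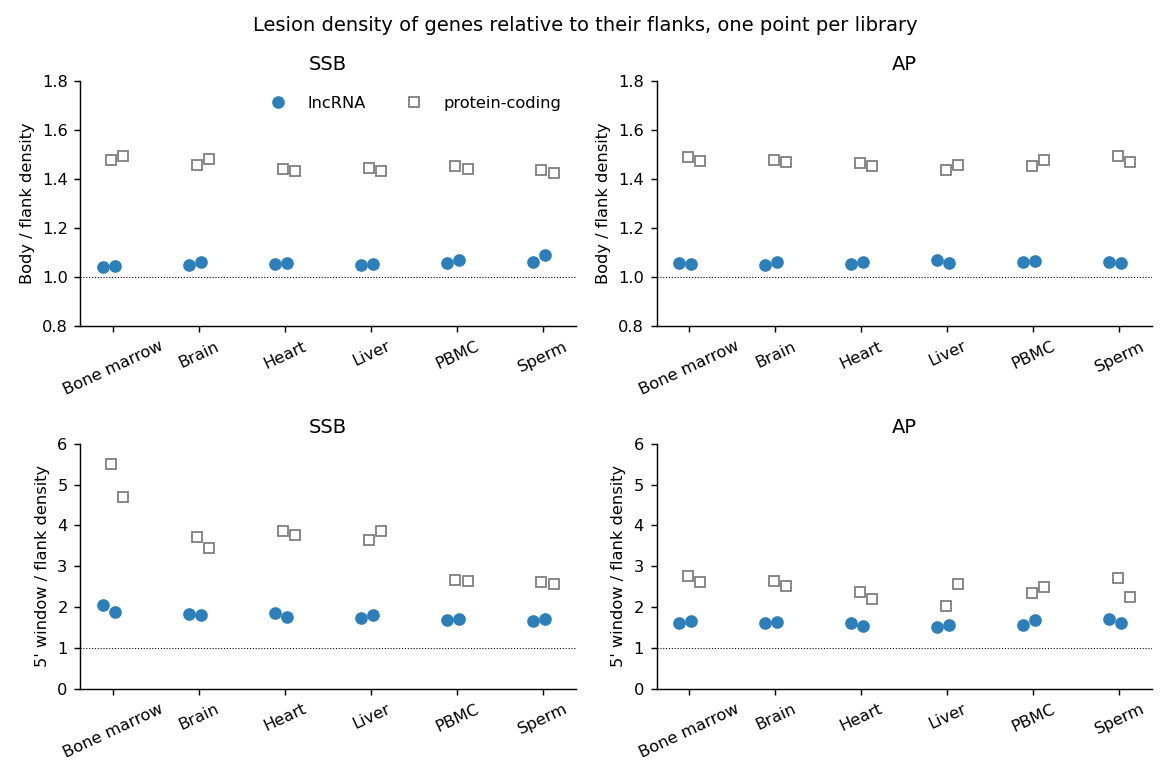
Density of positions in gene bodies (upper row, axis from 0.8) and in windows of 500 bp on each side of the 5' end (lower row) divided by flank density, with 1 point per library, by tissue. Filled circles are lncRNA genes and open squares protein-coding genes. The lncRNA body ratios lie between 1.04 and 1.09, and the lncRNA 5' ratios for SSBs fall from 2.05 in a bone marrow library to 1.66 in a sperm library.

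The excess in the bodies was larger near coding genes, in short genes and next to the 5' end. For SSBs, the ratio of body to flank was 1.13 ± 0.0290 (SD, n = 12) in the 1547 genes less than 5 kb from a protein-coding gene, 1.07 ± 0.0241 in the 3042 genes 5 to 50 kb away and 1.02 ± 0.0125 in the 3063 genes farther off. For AP sites the same classes gave 1.12 ± 0.0246, 1.08 ± 0.0113 and 1.01 ± 0.0119. By length, the SSB ratio was 1.45 ± 0.0570 in the 2399 genes of 1 to 5 kb, 1.19 ± 0.0170 from 5 to 20 kb, 1.07 ± 0.0108 from 20 to 100 kb and 1.05 ± 0.0327 in the 174 genes of 100 kb or more. The AP ratios by length were 1.40, 1.18, 1.07 and 1.04 in the same order. Each class was set against the flanks of its own genes. The SSB density itself ranged from 0.634 ± 0.0306 in the genes of 1 to 5 kb to 0.356 ± 0.0187 in those of 100 kb or more, which is below the 0.406 of the flanks of all lncRNA genes. These classes were drawn after the data had been seen, and their order was not tested.

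When the 2 kb next to the 5' end were left out, in the 5328 genes that have a known 5' end and are longer than that, the SSB ratio fell from 1.06 ± 0.0159 to 1.02 ± 0.0195 and ranged from 0.985 to 1.05. The log2 ratio was still above 0 (0.02, exact sign-flip test, p = 0.0186). The AP ratio fell from 1.06 ± 0.00587 to 1.03 ± 0.00705 (log2 ratio 0.04, exact p = 0.000488). In this setting, chosen after seeing the data, the log2 ratio was lower for SSBs than for AP sites by 0.0223 on average (exact sign-flip test, p = 0.0137).

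The 5' ends of lncRNA genes carried more lesions than their bodies. In windows of 500 bp on each side of the 5' end, SSB density was 0.725 ± 0.0391 (SD, n = 12) and AP density 0.659 ± 0.0248. The ratio to the flank ranged from 1.66 to 2.05 for SSBs (1.79-fold for the mean log2 ratio) and from 1.51 to 1.70 for AP sites (1.60-fold), above 1 in 12 of 12 libraries of each (exact sign-flip test, adjusted p = 0.000799). The excess was larger for SSBs than for AP sites of the same samples by 0.15 ± 0.10 on the log2 scale (higher in 11 of 12 samples, two-sided exact sign-flip test, adjusted p = 0.00220). With only genes 5 kb or more from a protein-coding gene this difference was 0.06 (exact sign-flip test, p = 0.00684). Protein-coding 5' ends reached 1.29 ± 0.359 for SSBs and 0.857 ± 0.0871 for AP sites, and the lncRNA log2 ratio was lower than theirs by 0.96 ± 0.28 and 0.61 ± 0.11 (lower in 12 of 12 libraries of each, exact sign-flip test, adjusted p = 0.000799). The AP difference was -0.40 without the bins that hold no position.

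Divergent genes stood above the others. The 429 divergent lncRNA genes, with a median of 157 bp between their 5' end and that of the protein-coding gene, had an SSB density of 1.34 ± 0.346 (SD, n = 12) in the 5' window, and the 5363 other lncRNA genes had 0.676 ± 0.0178. The divergent log2 ratio was higher by 0.94 ± 0.36 (12 of 12 libraries, exact sign-flip test, adjusted p = 0.000799). For AP sites, the densities were 0.820 ± 0.0906 and 0.646 ± 0.0225, with a log2 difference of 0.34 ± 0.14 (12 of 12 libraries, adjusted p = 0.000799, exact sign-flip test). A window of a divergent gene mostly covers the 5' end of its protein-coding partner too, so its positions belong to both genes. The other genes remained above the flank without a partner, at 1.67-fold for SSBs and 1.57-fold for AP sites. Divergent and other genes were both divided by the flank of all lncRNA genes, so a denser surrounding of divergent genes was not taken into account. Over 12 libraries, a divergent window held a median of 7 SSB positions and another window 3, and 2.10% and 14% of these windows held 0.

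Along the gene, the SSB density of the other lncRNA genes rose from 1.28 times the flank at 750 to 1000 bp before the 5' end to 1.84 times in the first 250 bp after it, and it was 1.48 times the flank at 500 to 750 bp. In divergent genes the SSB density was highest in the 250 bp before the 5' end (3.92 times the flank) and was 2.76 times the flank at 750 to 1000 bp before it, on the side of the coding partner. Inside the divergent gene it was 1.93 times the flank at 500 to 750 bp. For AP sites, divergent genes were at 1.94 to 2.08 times the flank from 1000 bp before to 500 bp after the 5' end, a plateau rather than a peak.

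Base composition moved with these classes. A promoter was called CpG-rich when GC exceeded 50% and the observed over expected number of CpG exceeded 0.6 in its 300 bases. This held for 66.0% of divergent, 3.8% of other lncRNA and 49.0% of protein-coding promoters, and the median GC content was 63.3% in divergent and 47.0% in other promoters. Among the other lncRNA genes alone, the 204 CpG-rich ones exceeded the 5159 CpG-poor ones by 0.91 ± 0.35 on the log2 scale for SSBs (12 of 12 libraries, exact sign-flip test, adjusted p = 0.00244) and by 0.31 ± 0.20 for AP sites (11 of 12 libraries, exact sign-flip test, adjusted p = 0.00488). These 2 tests are among 10 chosen after seeing the data and adjusted as their own family. The CpG-poor 5' ends were still above the flank in each library, at 1.55 to 1.67 times for SSBs and 1.47 to 1.64 times for AP sites.

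The SSB excess at 5' ends differed across tissues, and the AP excess did not detectably. For all lncRNA 5' ends, the SSB ratio was 2.05 and 1.87 in bone marrow, 1.82 and 1.8 in brain, 1.85 and 1.76 in heart, 1.74 and 1.81 in liver, 1.68 and 1.71 in PBMCs and 1.66 and 1.71 in sperm. Bone marrow was highest, and the PBMC and sperm libraries lay below the others (one-sided exact permutation test over 10395 pairings, p = 0.00789, adjusted p = 0.0109). The test lost its threshold without replicate 1 of bone marrow (p = 0.0515), of PBMCs (p = 0.0511) or of sperm (p = 0.0562), and with only genes 5 kb or more from a protein-coding gene (p = 0.416, exact permutation test). The AP ratios ranged from 1.51 to 1.70 (exact permutation test, p = 0.370). DNA came from organs (brain, heart, liver) or from prepared cells (bone marrow, PBMCs, motile sperm). Between such samples, another mix of cells and another number of lesions per cell cannot be told apart.

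The tissue difference was seen in divergent genes. Their SSB ratio was 5.03 and 4.19 in bone marrow, 3.97 and 3.65 in heart, 3.65 and 3.20 in brain, 2.91 and 3.56 in liver, 2.50 and 2.39 in PBMCs and 1.98 and 2.61 in sperm (exact permutation test over pairings, p = 0.00491, adjusted p = 0.0123). Bone marrow lay above all other libraries, brain and liver overlapped just below heart, and PBMCs overlapped sperm at the low end. The other lncRNA genes ranged only from 1.61 to 1.81, without a difference past the threshold (exact permutation test, p = 0.150), although without replicate 2 of bone marrow their p was 0.0400. The difference between divergent and other genes itself varied across tissues (exact permutation test, p = 0.00673, adjusted p = 0.0135). Among the other genes, the 204 CpG-rich ones had SSB ratios of 5.30 and 3.62 in bone marrow and 3.46 and 3.09 in liver. They had 3.29 and 3.13 in heart, 3.01 and 2.85 in brain, 2.58 and 2.56 in PBMCs and 1.91 and 2.54 in sperm. The CpG-poor ones ranged from 1.55 to 1.67 over all libraries. These classes were not tested across tissues. The 5' ends of 12359 protein-coding genes, most of which have no divergent lncRNA gene, had SSB ratios of 5.51 and 4.70 in bone marrow, 2.67 and 2.63 in PBMCs and 2.61 and 2.56 in sperm. For AP sites, divergent genes ranged from 1.69 to 2.33, with tissues overlapping (exact permutation test, p = 0.372).

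**Figure D2:**
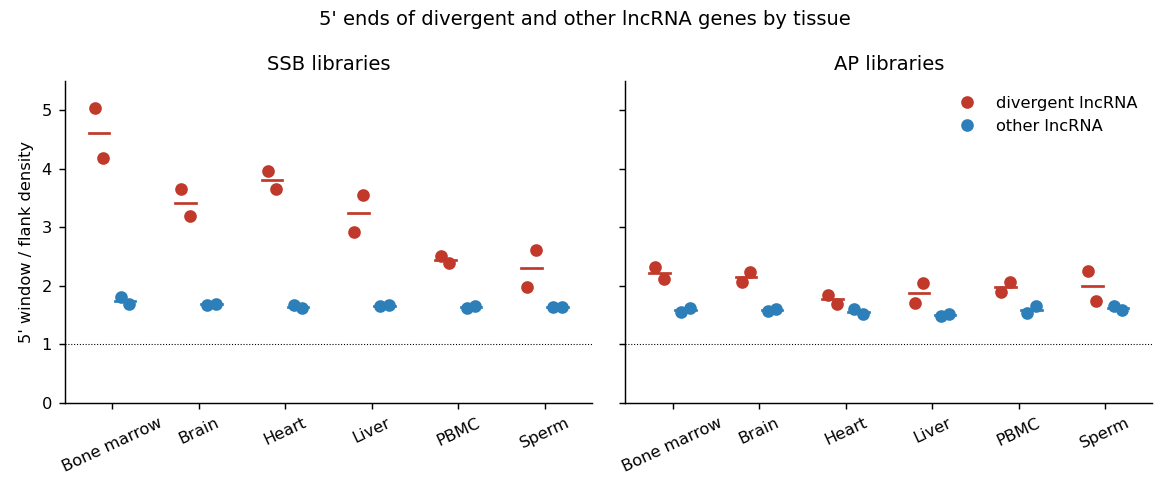
Density of positions within 500 bp of the 5' end divided by the density of the lncRNA flanks, by tissue, for divergent (red) and other (blue) lncRNA genes. Points are the 2 libraries of a tissue and bars their mean. Divergent SSB ratios run from 5.03 in bone marrow to 1.98 in sperm, and those of the other genes from 1.81 to 1.61.

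The SSB body ratio missed the threshold across tissues when replicate numbers were ignored (exact permutation test over pairings, p = 0.0795, adjusted p = 0.102). It was lowest in bone marrow (1.04 and 1.04) and highest in sperm (1.06 and 1.09), with sperm overlapping PBMCs. The library numbered 2 lay above number 1 in all 6 tissues, and with tissues permuted within each number the p was 0.00556 (one-sided exact permutation test, chosen after seeing the data). For AP sites the p over pairings was 0.649 (exact permutation test). With lncRNA genes 5 kb or more from protein-coding genes (p = 0.0360), without replicate 1 of sperm (p = 0.00885) or with the 2 kb next to the 5' end left out (p = 0.0271), the SSB body ratio did pass the exact permutation test.

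SSBs lay more often on the strand of the gene. In bodies with no gene on the other strand, 51.9% ± 0.346 (SD, n = 12) of the SSB positions were on the strand that has the sequence of the RNA, above 50% in 12 of 12 libraries and 51.2% to 52.5% over them (exact sign-flip test, adjusted p = 0.000799). Protein-coding genes exceeded lncRNA genes in this share by 2.90 percentage points for SSBs (12 of 12 libraries, exact sign-flip test, adjusted p = 0.00244). The AP share was 50.2% ± 0.495 and its range of 48.9% to 50.9% included 50% (exact sign-flip test, p = 0.139). Replicate 1 of liver gave the lowest AP share, and without it the excess over 50% was 0.355 points (exact p = 0.00195).

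Gene by gene, fewer lncRNA genes than genes in general differed from their own flank. For this, 44.7% of all genes were called in either direction for SSBs and 57.9% for AP sites, against 25.2% and 37.7% of lncRNA genes. A share called also depends on the number of positions per gene. The median length was 8782.5 bp in lncRNA genes and 16405.5 bp in the protein-coding set, and the part of length in these shares was not tested. The test counted positions of a gene's body and flank in each library as a pair (edgeR's quasi-likelihood test, Benjamini-Hochberg adjustment over all autosomal genes tested, threshold 0.05). For SSBs, 1238 of 6728 lncRNA genes tested were higher than their flank (18.4%), beside 40% of all 27013 autosomal genes tested, and 456 were lower (6.78%), beside 4.72% of all genes. For AP sites, 1844 of 6765 were higher (27.3%, beside 51.1% of all genes) and 708 lower (10.5%, beside 6.75%). In lncRNA genes the median log2 ratio was 0.20 (SSBs) and 0.21 (AP sites), compared with 0.72 and 0.75 in the protein-coding set and 0.57 and 0.60 over all genes. Of the lncRNA genes higher for SSBs, 70.8% were higher for AP sites too, and 47.9% the other way round. The flanks are the same stretches in both assays, in separate libraries of the same samples. This overlap is not given for all genes, so it is not shown to be particular to lncRNA genes. Gm33669, named after its values were seen, was the only gene called in opposite directions (log2 ratio -1.08 ± 0.42 (SE) for SSBs and 0.71 ± 0.28 for AP sites).

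Sequence without any position moved with these calls. Of the 1 kb bins of the autosomes, 571966 held no position in any of the 24 libraries. They made up 11.4% of the body and 27.3% of the flank of the lncRNA genes called higher for SSBs, and 30.8% of the body and 14.8% of the flank of those called lower. A body with few positions has such bins by construction, and how far they stand for sequence that cannot be mapped was not tested. With these bins left out, 492 genes were higher and 185 lower for SSBs, and 978 and 434 for AP sites. In that setting 22.6% of all genes were higher and 2.60% lower for SSBs, and 35.2% and 4.80% for AP sites.

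**Figure D3:**
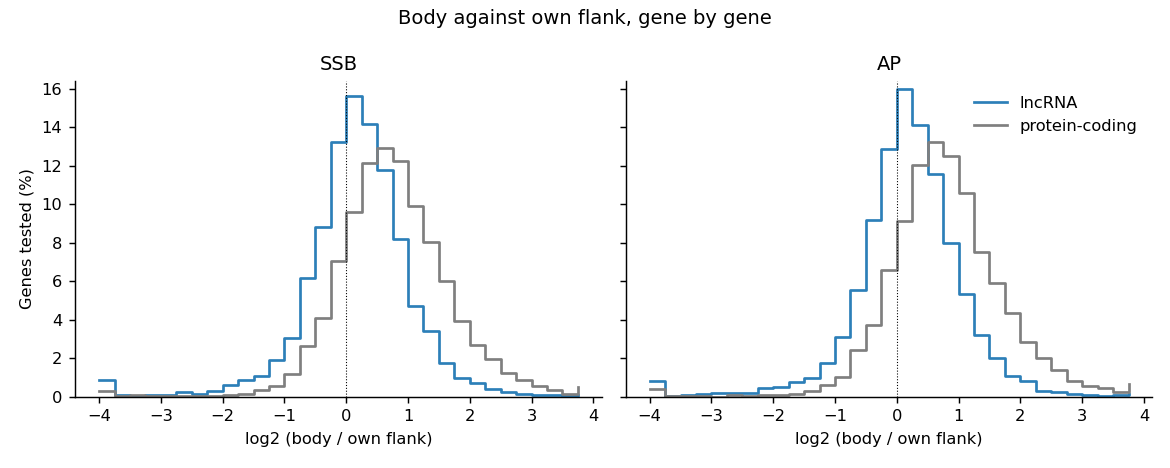
Distribution of the log2 ratio of body to own flank over the lncRNA genes tested (blue) and the protein-coding set (grey), in steps of 0.25, as a percentage of the genes tested in each class. The outermost steps hold the genes beyond -4 and 4. The medians are 0.20 and 0.72 for SSBs and 0.21 and 0.75 for AP sites.

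The gene with the smallest p in both assays was AY036118, on chromosome 17 from 39848112 to 39898385, whose low end overlaps the ribosomal RNA pseudogene Rn18s-rs5. It held 13 to 102 SSB positions per library with a median of 39.5, a density of 1.95 ± 0.610 (SD, n = 12) against 0.0989 ± 0.0513 in its flank. The log2 ratio was 4.47 ± 0.18 (SE) for SSBs and 3.56 ± 0.18 for AP sites. Body and flank did not overlap in any library. These positions were not spread over the gene: 92.9% of the SSB and 88.5% of the AP positions lay in the 5027 bp from 39848112 to 39853138, next to Rn18s-rs5. In the rest of the gene the SSB density was 0.176 ± 0.103 and the AP density 0.115 ± 0.0712. Since ribosomal DNA is repeated, reads of other copies may have been placed here, which was not tested, and the values of AY036118 are uncertain.

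Gm40034, on chromosome 2 from 181914498 to 181918503, was second in both assays. It held 5 to 24 SSB positions per library (median 9.5) and 4 to 19 AP positions (median 11.5). Its density was 5.83 ± 1.41 for SSBs against 0.259 ± 0.137 in the flank, above the flank in 12 of 12 libraries, with a log2 ratio of 4.53 ± 0.24 (SE) for SSBs and 4.11 ± 0.22 for AP sites. A stretch of 401 bp from 181917702 to 181918102 held 100 of its 124 SSB positions and 105 of its 129 AP positions. Gm40237, on chromosome 4 from 118547139 to 118548256, showed the assays apart. It held 33 SSB positions, 0 to 6 per library, and its log2 ratio was 3.52 ± 0.40 for SSBs. The 33 positions fell into 2 of 10 equal parts of the gene. It held 1 AP position in 12 libraries, a body to flank ratio of 0.225 with an exact 95% counting interval of 0.00564 to 1.28. This interval covers counting error only.

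Other genes held positions over most of their length. A930004D18Rik, beside Skida1 and Mllt10 on chromosome 2 (18025187 to 18037741), had 4 to 22 SSB positions per library, spread over all 10 equal parts of the gene. Its SSB density of 1.46 ± 0.353 was above the flank (0.215 ± 0.110) in 12 of 12 libraries, with a log2 ratio of 2.63 ± 0.27 (SE). Bins without any position made up 33.9% of its flank and 0% of its body. Over the alternative flanks, counts and fits its lowest SSB log2 ratio was 1.71. Hdnr, next to the heart regulator gene Hand2 on chromosome 8 (57332435 to 57354580), had 10 to 29 AP positions per library (median 17), again in all 10 parts. Its AP density was 1.01 ± 0.213 against 0.252 ± 0.0969 in the flank, without overlap, and the log2 ratio was 1.99 ± 0.17 for AP sites and 1.73 ± 0.22 for SSBs. Gm41011 on chromosome 13 was higher for SSBs at 2.37 ± 0.28 on the log2 scale (1.5 without the empty bins), with positions in 9 of 10 parts and 30% of them in 1 part. Gm46840 on chromosome 4 was higher for AP sites at 1.96 ± 0.17, with positions in 8 of 10 parts and 26.2% of them in 1 part. Gm46445 on chromosome 14 had 62 SSB and 145 AP positions against 1 and 2 in its flank, of which 99.1% lay in bins without any position. Its ratios of 58.1 (exact 95% counting interval 10.1 to 2332) and 68.0 (18.5 to 567) therefore rest on 1 and 2 flank positions. Why these bins were empty was not tested.

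The genes furthest below their flanks held large empty stretches. Gm17576, on chromosome 8 from 71042606 to 71085761, spans the vomeronasal receptor pseudogene Vmn2r-ps90. It held 0 to 4 SSB positions per library (median 2), with a density of 0.105 ± 0.0611 against 0.689 ± 0.375 in the flank and a log2 ratio of -2.83 ± 0.33 (SE). Empty bins made up 67.2% of its body and 2.80% of its flank, and with them left out the log2 ratio was -1.31. Gm32850 (73.6% of the body in empty bins), Gm40509 (60.7%), Gm41435 (42.1%), Gm10714 (45.9%) and A830012C17Rik (73.8%) were alike in this, with SSB log2 ratios from -1.48 in Gm10714 to -2.73 in Gm40509. Without these bins, Gm32850 and A830012C17Rik were no longer called for SSBs (edgeR, adjusted p = 0.105 and 0.184) nor Gm40509 for AP sites (edgeR, adjusted p = 0.307). Gm41435 lost its SSB call against the flank at 50 to 100 kb (edgeR, adjusted p = 0.228).

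Gm34667 and 4933405E24Rik held fewer such bins. Gm34667 on chromosome 12 held 2 to 8 AP positions per library, with an AP density of 0.248 ± 0.0928 against 0.794 ± 0.217 in the flank and a log2 ratio of -1.70 ± 0.20 (SE), which was -1.26 without the empty bins that made up 26.4% of its body. 4933405E24Rik on chromosome 11 held 1 to 13 SSB positions per library at 0.443 ± 0.272, about the level of the average lncRNA body, beside an unusually dense flank (1.41 ± 0.580), and its log2 ratio was -1.71 ± 0.23. Against the flank at 50 to 100 kb its SSB log2 ratio was -0.21 (edgeR, adjusted p = 0.469) and its AP log2 ratio turned from -1.18 to 0.01.

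lncRNA genes with known roles were described by list, and the lists were typed from general knowledge with earlier results of these data known. Only list symbols found among the 7652 genes were counted. Beside each count stands the share of all genes called higher, 40% for SSBs and 51.1% for AP sites, and the median log2 ratio over all genes, 0.57 and 0.60.

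Of the nuclear body genes, Neat1 (the scaffold of paraspeckles) and Malat1 (abundant in nuclear speckles) were both tested. Neat1, on chromosome 19 from 5824708 to 5845480, held 3 to 21 SSB positions per library (median 7) and 4 to 20 AP positions (median 16.5). Its SSB density of 0.798 ± 0.269 compared with 0.530 ± 0.356 in the flank, above it in 10 of 12 libraries, and it was higher for SSBs (log2 ratio 0.68 ± 0.22 (SE), edgeR adjusted p = 0.00587) and for AP sites (1.01 ± 0.17, edgeR adjusted p = 1.86e-08). Malat1, on chromosome 19 from 5795690 to 5802672, held 0 to 9 SSB positions per library. It was higher for AP sites (0.69 ± 0.29, edgeR adjusted p = 0.0291), and its SSB log2 ratio was -0.02 ± 0.29. The SSB call of Neat1 was lost without the bins that hold no position (0.44, edgeR adjusted p = 0.121) and against the flank at 50 to 100 kb (0.15, edgeR adjusted p = 0.569). The AP call of Malat1 was lost against that flank (0.31, edgeR adjusted p = 0.263), by DESeq2 (adjusted p = 0.0606) and without replicate 1 or 2 of heart or PBMCs or replicate 2 of sperm (edgeR, adjusted p from 0.0607 to 0.0902).

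Among the imprinted genes, 1 of 3 was higher in each assay. It was Mirg, a maternally expressed host of miRNAs in the Dlk1-Dio3 region (log2 ratio 1.64 ± 0.23 for SSBs and 1.29 ± 0.17 for AP sites, SE). Its SSB density was 0.991 ± 0.367 against 0.328 ± 0.140 in the flank, above it in 12 of 12 libraries. Against the flank at 50 to 100 kb Mirg was at 1.0 and 0.77, still called. H19 (0.52 ± 0.48 and 0.14 ± 0.38) and Nctc1 beside it (-0.05 ± 0.23 and 0.08 ± 0.17) did not pass. H19 held 0 to 2 SSB positions per library, so that a difference of this size was not detectable at this depth.

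Of the snoRNA hosts, whose introns give small nucleolar RNAs, 7 of 11 tested were higher for SSBs and 7 of 11 for AP sites, with 0 lower and median log2 ratios of 1.15 and 1.12. Snhg17 (1.24 ± 0.32 and 0.80 ± 0.25, SE), Snhg4 (0.86 ± 0.36 and 1.86 ± 0.33) and Snhg16 (1.46 ± 0.39 and 1.12 ± 0.33) were higher in both assays. Snhg11 was at 0.07 ± 0.32 and 0.01 ± 0.26. The SSB call of Snhg4 was lost by DESeq2 (adjusted p = 0.163), with summed read counts (edgeR, adjusted p = 0.0520), without the empty bins (edgeR, adjusted p = 0.417) and without replicate 1 or 2 of bone marrow, heart or PBMCs, replicate 2 of brain or replicate 2 of sperm (edgeR, adjusted p from 0.0612 to 0.362 without 1 library). Without the empty bins, the AP calls of Snhg17 and Snhg16 were lost too (edgeR, adjusted p = 0.0874 and 0.121).

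Of the miRNA hosts, 3 of 6 tested were higher in each assay. Mir9-3hg, host of a brain miRNA, was higher in both (1.08 ± 0.16 for SSBs and 1.0 ± 0.13 for AP sites, SE), Mir100hg was higher for SSBs (0.41 ± 0.15, against 0.20 ± 0.10 for AP sites), and Mir99ahg was at 0.03 ± 0.17 and -0.05 ± 0.13. The call of Mir100hg was lost by DESeq2 (adjusted p = 0.0550) and without replicate 2 of brain (edgeR, adjusted p = 0.0543), and Mir9-3hg was at 0.56 for AP sites against the flank at 50 to 100 kb, still called. Mir124-2hg, with 1 to 7 SSB positions per library, had no flank to be tested against. Of the genes typed into the neural list, 6 of 8 tested were higher for SSBs and 7 of 8 for AP sites, where 1 was lower. These counts include Lncenc1, for which a neural role was not checked. Tunar, needed for neural differentiation of stem cells, was higher in both (0.71 ± 0.17 and 0.98 ± 0.12), as were Rmst, a partner of Sox2 (0.54 ± 0.21 and 0.38 ± 0.16), and Lncenc1 (0.46 ± 0.17 and 0.30 ± 0.13). Against the flank at 50 to 100 kb none of these 3 was called: Tunar was at 0.28 and 0.21 (edgeR, adjusted p = 0.101 and 0.0629), Rmst at 0.26 and 0.17 (edgeR, adjusted p = 0.199 and 0.25) and Lncenc1 turned to -0.04 and -0.05. Rmst and Lncenc1 were not called by DESeq2 either (adjusted p from 0.0614 to 0.109). Otx2os1 was lower for AP sites (-0.33 ± 0.12) and at -0.26 ± 0.16 for SSBs. Without the empty bins, Tunar was no longer called for SSBs (edgeR, adjusted p = 0.0928), Rmst and Lncenc1 in neither assay (0.0668 to 0.410) and Otx2os1 not for AP sites (0.110). Without 1 library, Rmst was lost for SSBs (replicate 1 or 2 of liver, replicate 2 of heart or sperm) and for AP sites (replicate 1 or 2 of bone marrow or heart, replicate 1 of liver, replicate 2 of sperm), with edgeR adjusted p from 0.0523 to 0.105. Lncenc1 was lost for SSBs without replicate 2 of heart or sperm and for AP sites without replicate 2 of bone marrow or replicate 1 of brain or PBMCs (edgeR, adjusted p from 0.0701 to 0.131).

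Of the cardiac genes, 2 of 4 were higher in each assay. Carmn, the host of Mir143 and Mir145 in smooth muscle, was at 0.95 ± 0.20 in the SSB and 1.03 ± 0.16 in the AP libraries (log2 ratio ± SE), above the flank in 12 of 12 libraries of each. Hand2os1, which starts head to head with Hand2, had 0.99 ± 0.25 and 0.83 ± 0.20, the latter 1.33 against the flank at 50 to 100 kb. Fendrr was at 0.16 ± 0.17 and 0.13 ± 0.13, and Bvht at 0.38 ± 0.30 and -0.23 ± 0.28. Of the Hox cluster genes, 0 of 3 passed for SSBs and 1 of 3 for AP sites, namely Haglr (0.80 ± 0.21), which was lost against the flank at 50 to 100 kb (0.29, edgeR adjusted p = 0.225). Hotair was at 0.10 ± 0.37 and 0.49 ± 0.29 and Hottip at -0.29 ± 0.36 and 0.32 ± 0.29.

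Of the blood and immune genes, 0 of 4 were called for SSBs, while 3 were higher and 1 lower for AP sites. Morrbid, which controls the life span of myeloid cells, was at 0.41 ± 0.11 for AP sites and 0.27 ± 0.15 for SSBs (SE), AW112010 at 1.90 ± 0.47 and 1.19 ± 0.65, Mir155hg at 1.23 ± 0.54 and 0.92 ± 0.77, and Lockd was the lower gene (-0.78 ± 0.25, against -0.32 ± 0.29). Mir155hg held 0 to 2 positions per library in each assay, and its AP call was lost without the empty bins (edgeR, adjusted p = 0.275) and without replicate 1 or 2 of bone marrow, liver or sperm or replicate 2 of brain (edgeR, adjusted p from 0.0533 to 0.138). The AP call of AW112010 was lost against the flank at 50 to 100 kb (0.71, edgeR adjusted p = 0.108). Of the stress, p53 and growth genes, 3 of 5 tested were higher for SSBs and 2 of 5 for AP sites. Pvt1, beside Myc, held 37 to 163 SSB positions per library and was higher in both (0.41 ± 0.12 and 0.33 ± 0.09, the latter 0.85 against the flank at 50 to 100 kb). Trp53cor1, a p53 target, passed for SSBs (0.74 ± 0.32, edgeR adjusted p = 0.0481) but not by DESeq2 (adjusted p = 0.0960), nor without the empty bins or without replicate 1 or 2 of heart, replicate 1 of bone marrow, liver, PBMCs or sperm, or replicate 2 of brain (edgeR, adjusted p from 0.0537 to 0.161), and was at -0.27 ± 0.25 for AP sites. Lncpint and Crnde did not pass. 0 genes of these lists were called across tissues, where 0 to 3 per list and assay had an unadjusted p under 0.05. Over all genes tested by edgeR, 1867 of 38482 had such a p for SSBs and 1219 of 41370 for AP sites.

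**Figure D4:**
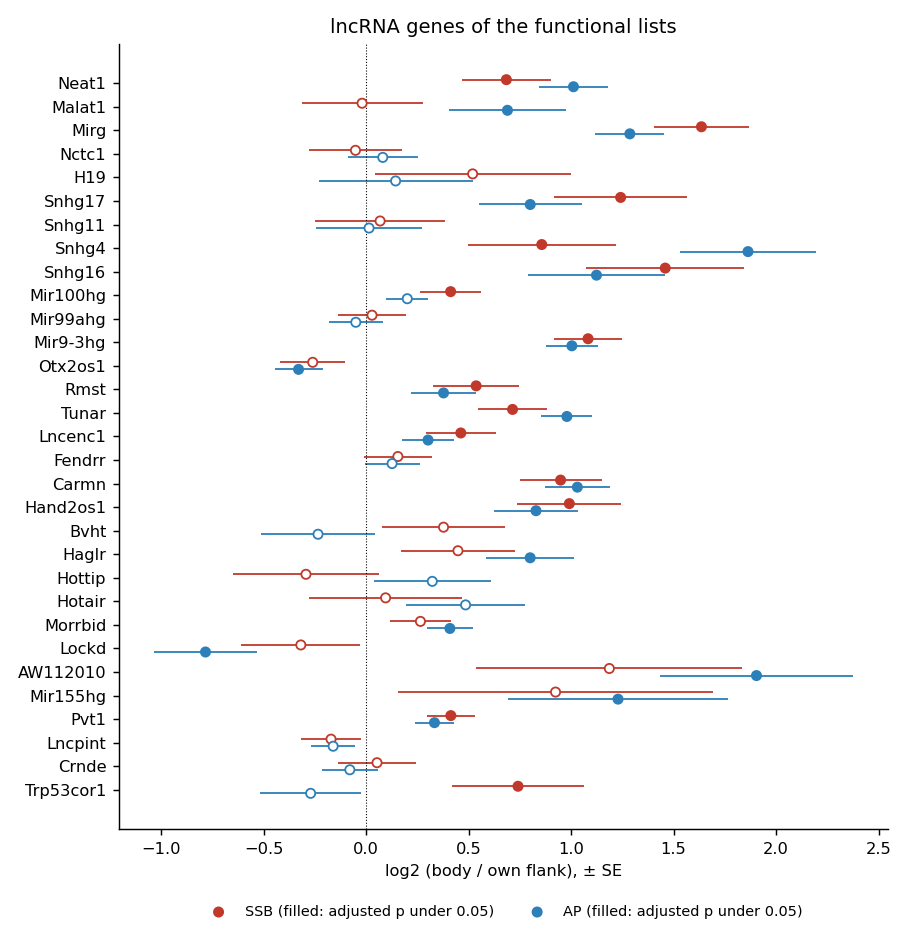
log2 ratio of body to own flank with its standard error for the lncRNA genes named from the lists, for SSBs (red) and AP sites (blue). Filled symbols passed edgeR's test at an adjusted p under 0.05. Mirg, Snhg16, Snhg17, Mir9-3hg, Carmn and Hand2os1 are filled in both colours to the right of 0, and Otx2os1 and Lockd are filled for AP sites to its left.

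The 575 genes that carry RIKEN names of testis clone libraries were taken as a group for the comparison with sperm. Their SSB density was 0.379 and 0.377 in sperm, 0.375 and 0.364 in brain, 0.372 and 0.368 in PBMCs, 0.361 and 0.357 in liver, 0.355 and 0.364 in heart and 0.350 and 0.347 in bone marrow. All lncRNA bodies, counted gene by gene, were in a like order, from 0.438 and 0.446 in sperm to 0.419 and 0.421 in bone marrow. For AP sites the group was at 0.380 and 0.385 in sperm and 0.361 and 0.363 in bone marrow, with heart, liver and PBMC libraries overlapping sperm. Against their own flanks, 83 of 513 were higher and 49 lower for SSBs, beside 40% and 4.72% of all genes, with a median log2 ratio of 0.15.

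Single lncRNA genes rarely differed across tissues. With edgeR's quasi-likelihood F test over the 6 tissues, 1 of 7257 lncRNA genes passed for SSBs, beside 0.125% of all 38482 genes tested. An unadjusted p under 0.05 was found for 235 lncRNA genes, beside 1867 of all genes. DESeq2's likelihood ratio test called 1 lncRNA gene as well. For AP sites 0 of 7381 passed, beside 0% of all 41370 genes, and 0 by DESeq2. In that edgeR test, 195 lncRNA genes had an unadjusted p under 0.05, beside 1219 of all genes. The gene called was AY036118, with SSB densities of 2.99 and 2.78 in bone marrow, 2.32 and 2.41 in liver, 2.05 and 1.95 in heart, 1.82 and 1.52 in brain, 1.64 and 1.71 in sperm and 1.33 and 0.846 in PBMCs (edgeR adjusted p = 0.00684). Bone marrow and liver lay above and PBMCs below the other libraries. The call was lost without bone marrow (adjusted p = 0.295), at equal depth (edgeR adjusted p = 0.534), and without replicate 1 of bone marrow (0.160) or replicate 2 of PBMCs (0.249). Its positions lie mostly beside Rn18s-rs5, as described above.

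For AP sites, the genes of smallest unadjusted p were Snhg11, Gm5087 and Gm31525, none of which passed the adjustment. Snhg11, a host of small nucleolar RNAs expressed in neurons, held 11 and 7 AP positions in liver, 6 and 3 in heart, 7 and 5 in PBMCs, 3 and 1 in brain, 0 and 4 in bone marrow and 3 and 0 in sperm. Its density was 2.10 and 1.41 in liver and at most 0.715 elsewhere. Gm5087, divergent from Synpr, was at 0.381 and 0.385 in heart and 0.125 and 0.208 in bone marrow, with 1 sperm library at 0.379. Gm31525 was at 0.213 and 0.270 in heart and 0.0780 and 0.0582 in bone marrow.

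The longest genes held the most positions. Gm32647, which spans 1283931 bp of chromosome 7, held 65 to 316 SSB positions per library at a density of 0.224 ± 0.0296 (SD, n = 12) and 120 to 267 AP positions at 0.218 ± 0.0316, about the level of its flank (0.172 ± 0.112 and 0.261 ± 0.0798). A930011G23Rik on chromosome 5 was denser, at 0.560 ± 0.0606 for SSBs and 0.606 ± 0.0497 for AP sites, and did not differ from its flank past the threshold. 5730522E02Rik on chromosome 11 was higher than its flank in both assays (0.43 ± 0.15 for SSBs and 0.44 ± 0.12 for AP sites, log2 ± SE). 2610307P16Rik on chromosome 13 (0.40 ± 0.13) and 1700019L22Rik on chromosome 8 (0.45 ± 0.15) were higher for AP sites. Without the empty bins these calls of all 3 were lost (edgeR, adjusted p from 0.0588 to 0.575).

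In the 5' windows, LOC115490388 on chromosome 6 led with 31 SSB and 37 AP positions, at least 1 in each of the 24 libraries, and up to 7 SSB and 8 AP positions in a library. For SSBs it was followed by Gm36445 and 2610507I01Rik (28 each) and by 2410006H16Rik and Gm38440 (26 each). 2610507I01Rik had 0 to 11 SSB positions per library, with a median of 1, and 14 AP positions in all. For AP sites Gm34177 and Gm52771 (29 each), Gm36589 (27) and Gm10512 (25) followed. Gm34177 held 4 SSB positions in the same window and Gm10512 held 6. LOC115490388 was the only gene among the first 5 of both assays, and 45.5% of its body lay in bins without any position.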

How the data were processed

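SSiNGLe was used to map SSBs and SSiNGLe-AP to map AP sites, at nucleotide resolution, in 2 samples of each of 6 tissues. Chemistry of the library step is not given in the sources used here. The deposited files give, for each library, single-nucleotide positions with a strand and a raw read count at each; these counts are as the authors deposited them, in the mm10 (GRCm38) build that the submitters' processing notes name. The aligner is not given in the sources used here. Genes, spans and biotypes were taken from RefSeq GRCm38.p6, and strands and 5' ends from its promoter sequences. No genome sequence was used, so that mappability was not computed.

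Each position was counted once whatever its read count, and the summed read counts were an alternative. The gene-free flank (20 to 50 kb from the genes) was pooled over merged intervals of a class. log2 ratios were tested with exact two-sided sign-flip tests over 12 libraries, and differences among tissues by exact permutation of the libraries over their 10395 possible pairings (one-sided), adjusted by Benjamini-Hochberg over 18 tests, with 10 tests added after seeing the data adjusted as their own family. For single genes, edgeR 4.0.16 fitted quasi-likelihood models across tissues with TMM scaling for genes with a position in at least 20% of libraries, and against the own flank of a gene with the library as a block for genes with at least 10 kb of flank and 20 positions. Adjusted p-values of genes are those of edgeR over all genes tested at a threshold of 0.05. DESeq2 1.42.0, other flanks, windows, filters and scalings, equal depth, and leaving out each library were the alternatives. Scripts ran under Python 3.11.15 and R 4.3.3 and were tested on simulated counts.

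Named genes were those of smallest p per assay and direction (up to 5), the 3 of smallest p across tissues where none was called, the 5 with most positions in the 5' window and in the body, and up to 4 examples per list with most positions. The members and lists were chosen with earlier results of these data known.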

Additional observations from a re-analysis of the deposited data

Results flagged for a closer look

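Tissues differed in 3 measures by an exact permutation test over pairings of the 12 SSB libraries. The spread is given as the SD of the 6 tissue means of the log2 ratio. For all lncRNA 5' ends it was 0.0793 (p = 0.00789, exact permutation test), with bone marrow highest and sperm and PBMCs lowest. For divergent lncRNA genes it was 0.384 (p = 0.00491, exact permutation test). For the difference between divergent and other lncRNA genes it was 0.355 (p = 0.00673, exact permutation test). The last 2 tests were chosen after seeing the data, and the windows of divergent genes are shared with protein-coding 5' ends.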

How the results depend on the processing

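Of 626 alternative values of the comparisons, 603 kept their direction and side of the threshold, and for each of the others the cause was not tested. The body difference of SSBs minus AP sites, not past the threshold, turned to 0.000698 with the flank at 50 to 100 kb and ranged from -0.00609 to 0.000178 when a sample was left out, and it was -0.0223 with the 2 kb next to the 5' end left out. The spread of the SSB body ratio across tissues passed at 0.0189 (genes 5 kb or more from coding genes), at 0.0263 (2 kb left out) and without replicate 1 of sperm, and its value of 0.0157 passed with tissues permuted within replicate numbers as a block (p = 0.00556, exact permutation test, chosen after seeing the data), with a range of 0.0109 to 0.0220 without 1 library. That of the SSB 5' ends did not pass at 0.0256 (genes 5 kb or more from coding genes), and its range without 1 library was 0.0591 to 0.103. For other lncRNA genes this range was 0.0193 to 0.0563. The difference of the AP strand share between lncRNA and protein-coding genes, -0.194 points and not past the threshold, passed at -0.241 with genes of 5 kb or more and ranged from -0.279 to -0.160 without 1 library, passing without replicate 2 of liver (exact sign-flip test, p = 0.000977). The excess of the AP strand share ranged from 0.169 to 0.355.

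The number of lncRNA genes called across tissues for SSBs was 2 with genes found in at least 80% of libraries, 0 without bone marrow, 0 at equal depth and 0 to 2 without 1 library. The second gene was Gm29683, named after its values were seen. Over all genes, 48 were called for SSBs in the main test, 15 with no scaling, 16 by DESeq2, 7 without sperm, 3 without bone marrow and 7 at equal depth. With bins that hold no position left out, 677 lncRNA genes differed from their flank for SSBs and 1412 for AP sites, beside 25.2% and 40.0% of all genes. That setting also brought the log2 ratio of 5' ends from 0.84 to 0.61 (SSB) and from 0.68 to 0.46 (AP). Against the flank at 50 to 100 kb, Lncenc1 turned to -0.0355 (SSB) and -0.0532 (AP) and 4933405E24Rik to 0.0108 (AP). Of 1434 alternatives of named genes, 1331 kept the call and 100 lost it.

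The labels do not say that a replicate number marks an animal, and over single genes same-numbered libraries did not deviate together (correlation of deviations over 15 tissue pairs from -0.018 to 0.030 in SSB and from -0.101 to 0.069 in AP libraries), although the SSB body ratio was higher in number 2 in 6 of 6 tissues. With the replicate number as a block, the other tests across tissues kept their side of the threshold. In that setting 1 lncRNA gene was called across tissues for SSBs and 0 for AP sites, beside 59 and 0 of all genes. Without the library block, 1739 of 6728 lncRNA genes differed from their flank for SSBs, beside 12267 of all 27013 genes. For AP sites the counts were 2599 of 6765, beside 15953 of 27302. At 1 to 4 positions per gene and library, differences between tissues in single lncRNA genes were mostly not detectable. Divergent genes could not be tested 5 kb or more from coding genes.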

Other observations

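In all 6 tissues the SSB body ratio of the library numbered 2 was above that of the library numbered 1 (two-sided exact sign-flip test, p = 0.0312, the smallest that 6 values allow, adjusted p = 0.125 over 4 ratios). The labels do not say what the numbers stand for. The SSB 5' ratio was higher in number 1 in 3 tissues and in number 2 in 3, the AP body ratio likewise in 3 and 3, and the AP 5' ratio in 2 and 4. This was noticed in the data and not planned.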
